A study of Mus musculus with 6 samples.

Results

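The genes described here are 10 mouse genes of the last steps of glycolysis and of lactate transport, out of 56941 genes in the count table. They are the lactate carriers Slc16a3 and Slc16a1 and their partner Bsg, the lactate dehydrogenase subunits Ldha and Ldhb, the enzymes Pgk1, Eno1, Eno2 and Pkm, and the kinase Pdk1. They were chosen by function and by the measured counts of FL 1 to 3 against EC-KO 1 to 3, in which Slc16a3 was far lower in EC-KO. Differences of these 10 genes between the groups are therefore given as description, without p-values. All 10 were found by Ensembl identifier and all 10 were among the 18562 genes with enough counts to be tested.

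Cells were isolated from mouse lungs with magnetic beads, freed of dead cells and kept in endothelial medium with serum, and polyA RNA was sequenced. The FL group holds 3 libraries from cells whose labelled genotype is FUNDC1-FLOX, and the EC-KO group holds 3 libraries labelled FUNDC1-KO. Fundc1 encodes a mitophagy receptor of the outer mitochondrial membrane, and the series concerns its endothelial loss in pulmonary hypertension. The labels give no Cre driver, no age, no antibody on the beads and no time in culture, and they do not say whether libraries came from separate animals. The p-values given for other genes therefore measure the spread between these libraries, which may be technical. The titles read PAECs, and the protocol starts from lungs.

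Glycolysis turns glucose into pyruvate in the cytosol. In its lower part, phosphoglycerate kinase (Pgk1) and pyruvate kinase (Pkm) make ATP and enolase (Eno1, Eno2) makes phosphoenolpyruvate. Pyruvate is then reduced to lactate by lactate dehydrogenase or enters mitochondria, where pyruvate dehydrogenase acts on it unless a kinase such as Pdk1 switches it off. Lactate crosses the plasma membrane with a proton through monocarboxylate transporters, of which MCT4 (Slc16a3) is typical of cells that export much lactate and MCT1 (Slc16a1) carries it in either direction. Both need basigin (Bsg) to reach the cell surface. Endothelial cells are known to depend strongly on glycolysis, and several of these genes are textbook targets of hypoxia-inducible factors.

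Depth was 26658998 to 34306962 counts per library, and the 10 genes held 0.180% to 0.185% of all counts in FL and 0.130% to 0.137% in EC-KO. Fundc1, the gene targeted, was at 29.2 ± 3.67 CPM in FL and 15.02 ± 2.78 CPM in EC-KO (SD, n = 3 each), where CPM is the usual depth-scaled count on TMM-adjusted library sizes, and a gene count includes exons outside any deleted part. On the second principal component EC-KO 2 (-62.8) stood apart from EC-KO 1 (18.03) and EC-KO 3 (39.0), and on the first FL 1 (-44.9) was the FL library nearest the EC-KO libraries. Pan-endothelial markers summed to 13655 to 18784 CPM in FL and 5828 to 10958 CPM in EC-KO, and epithelial markers to 2070 to 4718 and 11889 to 17640 CPM, so the isolates differed in the RNA of several cell types. In bulk RNA, fewer cells of a type and less RNA per cell cannot be told apart. The log2 fold change of Fundc1 was -0.96, beside a median of -0.93 over the pan-endothelial markers. The part of endothelial RNA content in the fall of Fundc1 was not tested.

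Of the 10 genes, 4 fell and 2 rose in EC-KO at an adjusted p under 0.05 in edgeR's quasi-likelihood test, beside 27.1% of all genes tested (13.5% lower, 13.5% higher). Slc16a3, Eno1, Pkm and Pdk1 fell, and Slc16a1 and Ldhb rose. The 3 EC-KO libraries lay wholly outside the range of the FL libraries in 8 of the 10 genes, 5 lower and 3 higher, beside 45.4% of all genes tested (22.8% lower, 22.6% higher). The median log2 fold change of the 10 was -0.23, against 0.03 for all genes tested. Because this contrast entered the choice of the genes, these counts describe the list and nothing is drawn from them.

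**Figure D1:**
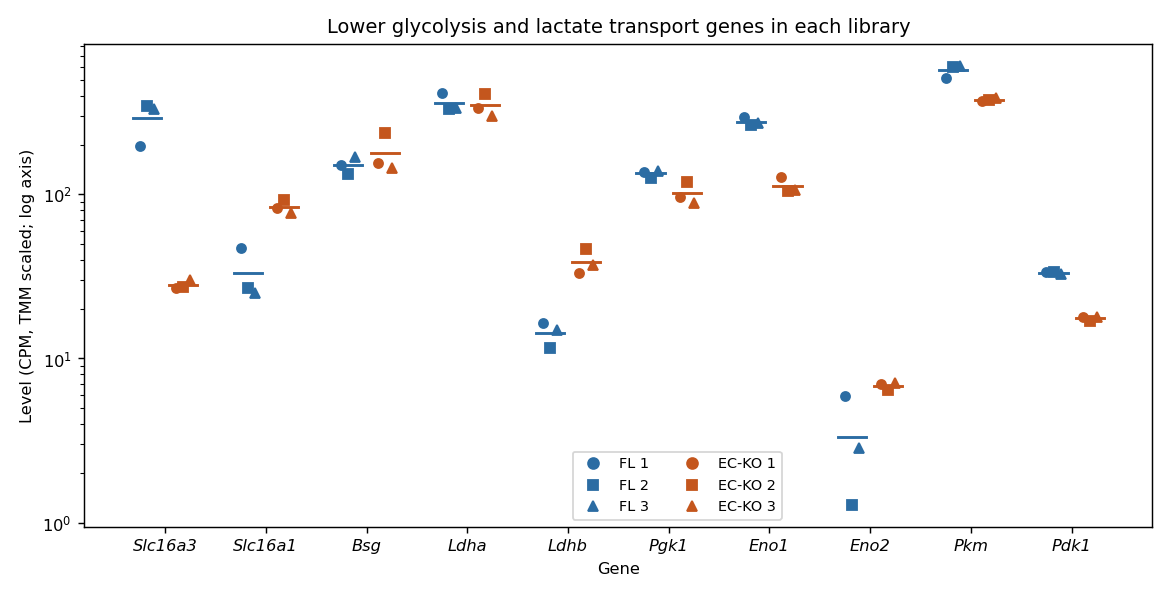
Level of each of the 10 genes in each library, in CPM with TMM scaling on a log axis. Blue symbols are the 3 FL libraries, orange symbols the 3 EC-KO libraries, and bars the group means. Slc16a3 lies between 26.9 and 29.9 CPM in EC-KO and between 198 and 345 CPM in FL, while the groups overlap for Bsg and Ldha.

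The lactate carriers moved in opposite directions. Slc16a3, which encodes MCT4, was at 198, 345 and 334 CPM in FL 1, 2 and 3, against 26.9, 27.3 and 29.9 CPM in EC-KO 1, 2 and 3. All 3 EC-KO libraries were close together and far below the lowest FL library, and FL 1 was the lowest of its group. Averaged over each group the level was 292 ± 82.0 and 28.0 ± 1.64 CPM (SD, n = 3 each), which is 10.4-fold lower in EC-KO (log2 fold change -3.38 ± 0.26, SE of the difference in log2 CPM). The gene (ENSMUSG00000025161) lies on the plus strand of chromosome 11, 120839306 to 120851694, by the positions that the table lists (their genome build could not be settled). Its raw counts were 5225 to 11306 in FL and 870 to 969 in EC-KO, so depth did not limit the value.

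Slc16a1, which encodes MCT1, was at 47.3, 27.0 and 24.9 CPM in FL 1, 2 and 3, against 82.2, 92.8 and 77.4 CPM in EC-KO 1, 2 and 3. The groups did not overlap, and FL 1 was the highest FL library here as it was the lowest for Slc16a3. The means were 33.1 ± 12.4 and 84.1 ± 7.89 CPM, a 2.54-fold higher level in EC-KO (log2 fold change 1.35 ± 0.30 SE). The gene (ENSMUSG00000032902) lies on the plus strand of chromosome 3, 104545984 to 104565778. Bsg, the partner that both carriers share (chromosome 10, 79540325 to 79547803), was at 151, 134 and 170.3 CPM in the FL libraries, against 155, 236 and 145 CPM in EC-KO. Its groups overlapped, EC-KO 2 was the highest library, and the log2 fold change of 0.24 ± 0.24 SE became -0.05 without EC-KO 2.

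Per gene length, the balance between the carriers was inverted. Slc16a1 made up 22.3%, 8.61% and 8.23% of the summed Slc16a1 and Slc16a3 level per kilobase in FL 1, 2 and 3, against 78.6%, 80.4% and 75.7% in EC-KO 1, 2 and 3. The mean share went from 13.1% ± 8.03 to 78.2% ± 2.38 (SD, n = 3 each). The summed level of both carriers was 62.5 ± 12.7 CPM per kilobase in FL and 24.3 ± 1.59 in EC-KO, or 2.57-fold lower, so the rise of Slc16a1 was smaller in amount than the fall of Slc16a3. Among the other genes of lactate transport and use, Slc5a12, a sodium-coupled lactate carrier, rose from 0.705 ± 0.154 to 3.85 ± 2.62 CPM (log2 fold change 2.43 ± 0.59 SE, edgeR adjusted p = 0.00970). It was the 1 of 4 tested genes of that list that passed, beside 27.1% of all genes tested. Without EC-KO 2 the log2 fold change of Slc5a12 was 1.72. Among the EC-KO libraries the epithelial (17640 CPM), fibroblast (3141 CPM), pan-endothelial (10958 CPM) and macrophage (4329 CPM) marker sums were all highest in EC-KO 2. The part of any cell type in the rise of Slc5a12 was not tested. Slc16a7, which encodes MCT2 (9.93 and 7.70 CPM, adjusted p = 0.293), and its partner Emb (178 and 158 CPM, adjusted p = 0.518) did not pass.

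**Figure D2:**
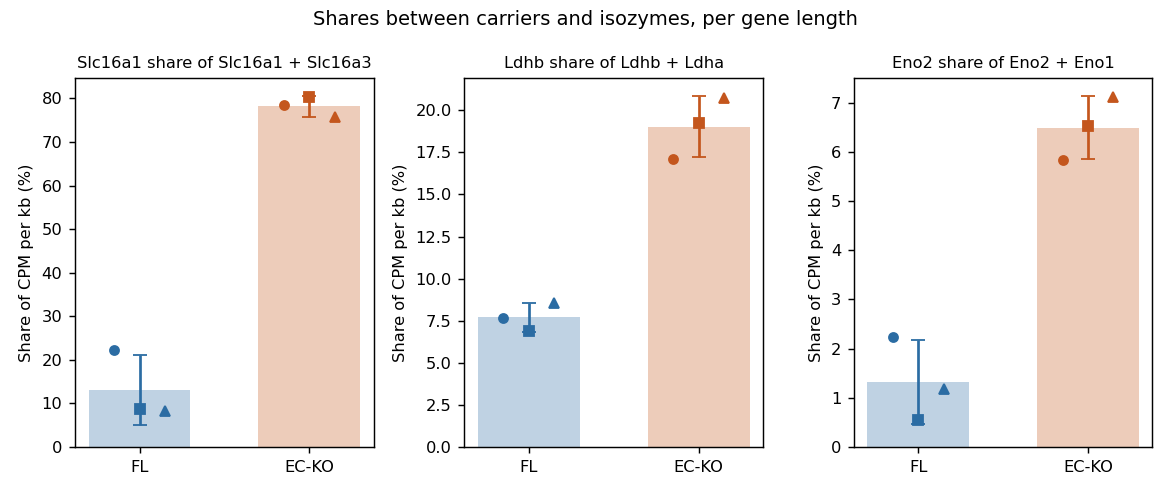
Share of Slc16a1, Ldhb and Eno2 in the summed level of each carrier or isozyme pair, in percent of CPM per kilobase of gene length. Bars are group means with SD, symbols single libraries (circle, square and triangle for libraries 1, 2 and 3). The Slc16a1 share is 8.23% to 22.3% in FL, against 75.7% to 80.4% in EC-KO.

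The promoter sequences of the genes that moved apart are shown because several are known hypoxia targets. RefSeq promoters (GRCm38.p6, 250 bases before to 50 after a start) were at hand for 9 of the 10 genes, 14 promoters in all, and none for Bsg. They were searched on both strands for ACGTG and GCGTG, the core letters bound by hypoxia-inducible factors, of which GCGTG is also the core bound by the aryl hydrocarbon receptor. A CACGTG holds an ACGTG on each strand and counts for 2. Matches are in capitals, 5′ to 3′ on the gene's strand. The lines below give the carriers and the lactate dehydrogenase subunits, with Slc16a3 at chr11:120948817-120949116 (plus strand), Slc16a1 at chr3:104638414-104638713 (plus), Ldha at chr7:46845554-46845853 (plus, the first of 2 listed starts) and Ldhb at chr6:142507908-142508207 (minus).
Slc16a3: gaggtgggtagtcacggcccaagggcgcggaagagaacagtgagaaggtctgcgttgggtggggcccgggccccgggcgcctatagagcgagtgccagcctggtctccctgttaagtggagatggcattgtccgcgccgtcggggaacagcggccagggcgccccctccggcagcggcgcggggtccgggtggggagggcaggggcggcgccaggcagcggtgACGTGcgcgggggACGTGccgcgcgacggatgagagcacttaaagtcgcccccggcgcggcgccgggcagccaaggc
Slc16a1: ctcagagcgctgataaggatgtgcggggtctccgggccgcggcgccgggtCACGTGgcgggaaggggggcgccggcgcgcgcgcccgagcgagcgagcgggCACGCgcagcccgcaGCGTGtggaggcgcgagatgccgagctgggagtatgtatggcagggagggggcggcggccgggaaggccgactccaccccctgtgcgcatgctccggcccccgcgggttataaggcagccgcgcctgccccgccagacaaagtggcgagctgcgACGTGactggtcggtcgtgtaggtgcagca
Ldha: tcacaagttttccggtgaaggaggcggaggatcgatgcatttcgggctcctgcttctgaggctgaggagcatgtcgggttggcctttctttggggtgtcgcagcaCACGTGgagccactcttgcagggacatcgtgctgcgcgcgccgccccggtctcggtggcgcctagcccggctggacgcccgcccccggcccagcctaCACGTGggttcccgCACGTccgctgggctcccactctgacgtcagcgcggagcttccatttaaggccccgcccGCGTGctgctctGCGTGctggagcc
Ldhb: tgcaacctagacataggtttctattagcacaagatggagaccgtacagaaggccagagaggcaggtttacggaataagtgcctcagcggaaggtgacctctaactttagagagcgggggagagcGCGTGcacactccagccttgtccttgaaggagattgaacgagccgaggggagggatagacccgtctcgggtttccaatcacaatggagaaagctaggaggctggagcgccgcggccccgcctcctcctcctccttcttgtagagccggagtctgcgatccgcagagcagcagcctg

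The Slc16a3 promoter holds 2 cores, both ACGTG, and the Slc16a1 promoter holds 5 (3 ACGTG and 2 GCGTG). The Ldha promoter holds 7 and the Ldhb promoter 1. Among all 32851 RefSeq promoters of this length, 43.8% hold at least 1 core, 20.6% at least 2 and 8.93% at least 3. These shares are not matched for GC content, so they do not show whether a promoter is rich in cores for its composition. GC content is 73.3% for the Slc16a3 promoter, 73.7% for Slc16a1, 67.3% for the first Ldha start and 57.3% for Ldhb. Pgk1 has 2, and the Eno2 promoter (chr6:124769624-124769923) has 0. Of the other genes called lower, Eno1 has 2 at each listed start, Pkm has 0 and 2, and Pdk1 has 2 and 0. The second Ldha start has 2. A relation between the number of cores and the changes was not tested. A match is a stretch of letters and not a measured binding site.

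Of the lactate dehydrogenase subunits, Ldhb rose and Ldha had overlapping groups. Ldhb, the subunit typical of heart (chromosome 6, 142435975 to 142453683, minus strand), was at 16.5, 11.7 and 14.8 CPM in the FL libraries, against 33.1, 46.6 and 37.2 CPM in EC-KO. Every EC-KO library was above every FL library, and the means of 14.3 ± 2.46 and 39.0 ± 6.92 CPM differed 2.72-fold (log2 fold change 1.44 ± 0.21 SE). Ldha, the subunit typical of muscle (chromosome 7, 46490899 to 46505051), was at 418, 333 and 334 CPM in the FL libraries, against 338, 412 and 300.2 CPM in EC-KO (log2 fold change -0.05 ± 0.17 SE). FL 1 and EC-KO 2 were the highest of their groups. Per gene length the Ldhb share of the pair went from 7.70% ± 0.848 to 19.0% ± 1.82, and the summed level of the pair was 119 ± 15.9 CPM per kilobase in FL and 131 ± 20.8 in EC-KO. Ldha thus remained the more abundant subunit in all 6 libraries.

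The enolases also differed from each other. Eno1, the form found in most tissues (chromosome 4, 150321178 to 150333336), was at 295, 264 and 274 CPM in the FL libraries, against 128, 105 and 106 CPM in EC-KO, a 2.45-fold lower level (278 ± 15.7 and 113 ± 13.1 CPM, log2 fold change -1.29 ± 0.10 SE). Eno2, the form typical of neurons (chromosome 6, 124737016 to 124746636, minus strand), was at 5.87, 1.28 and 2.86 CPM in the FL libraries, against 6.95, 6.39 and 7.14 CPM in EC-KO. Its EC-KO libraries were all higher but FL 1 came close to them, and the log2 fold change of 1.04 ± 0.62 SE was not called. It was called without FL 1 (1.69) and by limma-voom (1.33), and it was 0.64 without FL 2. Neuronal and neuroendocrine markers summed to 15.4 to 22.2 CPM in FL and 16.2 to 17.7 CPM in EC-KO, so the groups overlapped. Of the 7 such markers tested 1 was called, Tubb3 (higher, log2 fold change 1.01), beside 27.1% of all genes tested. The median of the 7 was 0.43, with 4 above 0 and 3 below. The part of such cells in the Eno2 difference was not tested. The Eno2 share of the pair per gene length was 1.32% ± 0.846 in FL and 6.49% ± 0.644 in EC-KO, and the pair's summed level was 2.33-fold lower in EC-KO.

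Pkm fell by less than Eno1, and Pgk1 was lower in every EC-KO library without being called. Pkm, whose transcript is spliced into the M1 and M2 forms of pyruvate kinase (chromosome 9, 59563651 to 59586658), was at 515, 597 and 607 CPM in the FL libraries, against 371, 377 and 388 CPM in EC-KO (573 ± 50.4 and 378 ± 8.66 CPM, log2 fold change -0.60 ± 0.08 SE). The groups did not overlap, and the EC-KO libraries were closer together than the FL libraries. Its call was lost when FL 2 (-0.58), FL 3 (-0.59), EC-KO 1 (-0.59) or, last, EC-KO 3 (-0.63) was left out, and under a block on the replicate number (-0.60). Gene counts cannot tell the M1 and M2 forms apart. Pgk1 (chromosome X, 105230706 to 105247305) was at 137, 127 and 139 CPM in the FL libraries, against 96.9, 118 and 89.2 CPM in EC-KO. Every EC-KO library was below every FL library, the log2 fold change of -0.40 ± 0.13 SE was not called, and it was called without EC-KO 2 (-0.56).

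Pdk1 fell and had the tightest FL libraries of the 10 genes. This kinase, which switches off pyruvate dehydrogenase (chromosome 2, 71703568 to 71734202), was at 33.7, 33.7 and 32.9 CPM in the FL libraries, against 17.971, 16.8 and 17.9 CPM in EC-KO. The means of 33.4 ± 0.440 and 17.6 ± 0.648 CPM differed 1.90-fold (log2 fold change -0.93 ± 0.03 SE). Relative spread within FL was 1.32% of the mean for Pdk1, against 28.1% for Slc16a3, 37.3% for Slc16a1 and 69.8% for Eno2. FL 1 was the FL library nearest the EC-KO mean in 5 of the 10 genes, among them these last 3.

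The order of the genes by level per gene length changed between the groups. In FL the order from the top was Pkm (115 ± 10.1 CPM per kilobase), Ldha (109 ± 14.7), Bsg (83.6 ± 10.1), Pgk1 (59.8 ± 2.88), Slc16a3 (55.0 ± 15.4), Eno1 (51.6 ± 2.92), Ldhb (9.13 ± 1.57), Slc16a1 (7.48 ± 2.79), Pdk1 (4.30 ± 0.0566) and Eno2 (0.709 ± 0.495). The libraries of Pkm and Ldha overlapped, as did those of Pgk1 and Slc16a3, of Slc16a3 and Eno1, and of Ldhb and Slc16a1, so these neighbours were not separated. In EC-KO Ldha (106 ± 17.1) and Bsg (98.5 ± 27.5) came first with overlapping libraries, followed by Pkm (75.7 ± 1.73) and Pgk1 (45.2 ± 6.73). Ldhb (24.8 ± 4.41), Eno1 (21.0 ± 2.44) and Slc16a1 (19.0 ± 1.78) came next, each overlapping its neighbour, then Slc16a3 (5.27 ± 0.309), Pdk1 (2.26 ± 0.0833) and Eno2 (1.45 ± 0.0825). Slc16a3 thus went from the 5th to the 8th place, below Slc16a1. These levels use the summed exon length of each gene in the count table, which is longer than any single transcript for some genes.

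Among the other enzymes of lower glycolysis, 3 of 6 tested genes were called (27.1% of all genes tested), 2 higher and 1 lower, and the list's median log2 fold change was 0.38. Pgam1, the phosphoglycerate mutase of most tissues, fell from 45.2 ± 1.94 to 22.2 ± 1.33 CPM (log2 fold change -1.03 ± 0.06 SE, edgeR adjusted p = 0.00196), though it was at 0.078 when scaled to the pan-endothelial list. Pgam2, the muscle form, rose from 2.75 ± 0.154 to 5.19 ± 1.66 CPM (0.92 ± 0.25 SE, edgeR adjusted p = 0.0390), but its call was lost when FL 1, FL 2, FL 3, EC-KO 1 or, last, EC-KO 3 was left out (edgeR adjusted p = 0.102, 0.101, 0.120, 0.0564 and 0.163). Its log2 fold changes in those fits were 0.84, 0.94, 0.90, 1.05 and 0.61. Bpgm, which makes the bisphosphoglycerate that red cells use, rose from 10.998 ± 1.80 to 21.0 ± 1.42 CPM (0.94 ± 0.14 SE and edgeR adjusted p = 0.00727), beside erythroid and platelet markers that summed to 33.6 to 110 CPM in FL and 129 to 267 CPM in EC-KO. The part of those cells in its rise was not tested. Gapdh, the enzyme just before Pgk1, was lower in every EC-KO library (756 ± 28.8 and 613 ± 16.0 CPM) and did not pass (-0.30 ± 0.04 SE, edgeR adjusted p = 0.174).

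At the entry of pyruvate into mitochondria, 5 of 14 genes were called (27.1% of all genes tested), 4 higher and 1 lower, with a median of 0.07. Pcx, pyruvate carboxylase, rose from 7.47 ± 2.24 to 22.9 ± 5.28 CPM (log2 fold change 1.62 ± 0.31 SE, edgeR adjusted p = 0.00342). Pdk4, another kinase of pyruvate dehydrogenase, rose from 42.8 ± 4.07 to 91.5 ± 30.9 CPM (1.10 ± 0.28 SE and edgeR adjusted p = 0.0103), where Pdk1 fell. Pdk2 (-0.63, adjusted p = 0.0647) and Pdk3 (0.09, adjusted p = 0.749) did not pass. The phosphatase subunit Pdp2 (0.87, adjusted p = 0.0137 in edgeR) and the dehydrogenase subunit Pdhb (0.52, adjusted p = 0.0249) rose and the subunit Dlat (-0.52, adjusted p = 0.0461) fell, the last at 0.55 and not called when scaled to the pan-endothelial list. Both subunits of the mitochondrial pyruvate carrier, Mpc1 (-0.22, adjusted p = 0.342) and Mpc2 (-0.17, adjusted p = 0.503), failed the test.

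With 5 libraries several of these genes no longer passed, although their log2 fold changes stayed in the same direction. The number called among the 14 genes was 3 when FL 1 was left out, 1 when FL 2 was, and 2 when FL 3, EC-KO 1 or EC-KO 3 was. Pdk4 was lost without FL 2 (edgeR adjusted p = 0.0502), and its log2 fold change was 0.76 without EC-KO 2, its highest library. Pdp2 was lost when FL 2, FL 3, EC-KO 1 or, last, EC-KO 3 was left out (0.0650, 0.0571, 0.0571 and 0.0505), with log2 fold changes of 0.78 to 0.99 over the 6 omissions. Pdhb kept its call only without EC-KO 2 (without FL 1 to 3, EC-KO 1 and EC-KO 3: 0.0818, 0.0944, 0.111, 0.0913 and 0.0795), and so did Dlat (0.0823, 0.141, 0.104, 0.127 and 0.142). Over the 6 omissions the log2 fold change was 0.48 to 0.55 for Pdhb and -0.67 to -0.44 for Dlat.

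**Figure D3:**
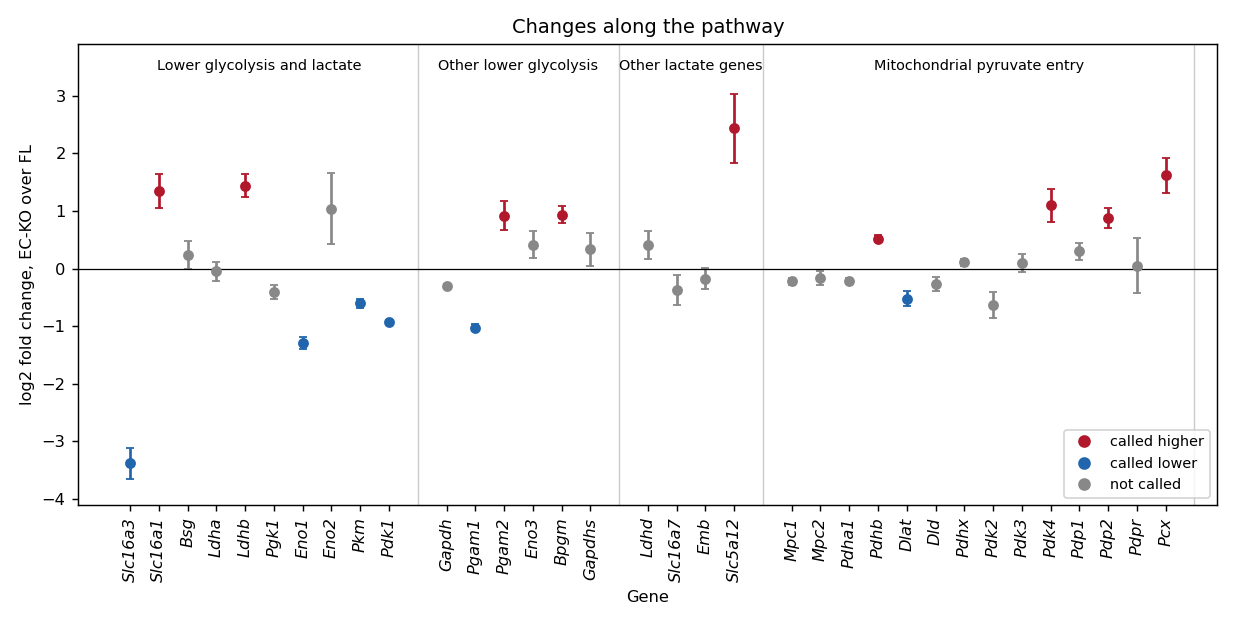
Log2 fold change (EC-KO over FL) of the 10 genes and of the tested genes of 3 neighbouring lists, with bars of 1 SE from the spread between libraries. Red and blue mark genes called higher and lower by edgeR and grey those not called. Slc16a3 has the lowest value (-3.38) and Slc5a12 the highest (2.43).

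Of 15 genes of glucose uptake and upper glycolysis, 5 were called (27.1% of all genes tested), 3 higher and 2 lower, with a median of -0.20. The hexokinase Hk2 rose (118 ± 36.9 to 314 ± 99.6 CPM, log2 fold change 1.41 ± 0.35 SE, edgeR adjusted p = 0.00791). The glucose carrier Slc2a3 fell (197 ± 82.3 to 50.2 ± 9.52 CPM, -1.97 ± 0.44 SE and edgeR adjusted p = 0.00350), and its FL 1 value of 103 CPM was far below FL 2 (259) and FL 3 (227), as for Slc16a3. Scaled to the pan-endothelial list, Slc2a3 was at -0.76 and Aldoc at -0.16, and both calls were lost. Of the other called genes, Pfkfb1 was lost without FL 2 or FL 3 (edgeR adjusted p = 0.0545 and 0.0675), Aldoc without EC-KO 1 (0.0526), and Pfkfb2 without any library but EC-KO 2 (FL 1 to 3, then EC-KO 1 and 3: 0.127, 0.107, 0.165, 0.0639 and 0.194). The log2 fold change over the 6 omissions was 1.03 to 1.38 for Pfkfb1, 0.46 to 0.82 for Pfkfb2 and -1.56 to -1.09 for Aldoc. The number called was 3 without FL 2, FL 3 or EC-KO 1 and 8 without EC-KO 2. Among 18 hypoxia targets outside glycolysis, 5 fell and 0 rose (beside 13.5% of all genes tested in each direction), with a median of -0.27. Of the 18, 14 had log2 fold changes below 0 and 4 above. Adm was higher in every EC-KO library (0.94 ± 0.41 SE) and did not pass (edgeR adjusted p = 0.0559). DESeq2 on all 6 libraries and edgeR without EC-KO 3 each called 1 target higher. Mxi1 (-1.26 ± 0.07 SE, edgeR adjusted p = 0.000835), Ddit4 (-1.77 ± 0.11 SE, adjusted p = 0.000436) and Ero1a (-1.21 ± 0.17 SE, adjusted p = 0.00240) fell and kept their calls whichever library was left out, but not under scaling to the pan-endothelial list (-0.15, -0.66 and -0.16), while Vegfa (-0.36, adjusted p = 0.276) did not pass. The number of these targets called was 8 without EC-KO 2.

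Ptbp1 and Hnrnpa1, which steer Pkm splicing towards the M2 form, rose in EC-KO and were the 2 called genes of 5 such factors, beside 27.1% of all genes tested (13.5% higher). Ptbp1 rose from 292 ± 40.6 to 439.8 ± 24.3 CPM (log2 fold change 0.59 ± 0.13 SE, edgeR adjusted p = 0.0313) and Hnrnpa1 from 515 ± 70.0 to 812 ± 165 CPM (0.66 ± 0.21 SE, adjusted p = 0.0434). The Ptbp1 call went when FL 2, FL 3, EC-KO 1 or else EC-KO 3 was left out (edgeR adjusted p = 0.109, 0.161, 0.101 and 0.0871), and Hnrnpa1 without FL 1 and without each of those libraries (0.0544, 0.154, 0.171, 0.153 and 0.109). Over the 6 omissions the log2 fold change stayed at 0.46 to 0.66 for Ptbp1 and at 0.51 to 0.77 for Hnrnpa1. By edgeR 4 of the 5 were called without EC-KO 2, 3 higher and 1 lower, and 1 was called without FL 1. Leaving out FL 2, FL 3, EC-KO 1 or, last, EC-KO 3 left 0 called by edgeR, with 2, 1, 2 and 2 genes at an unadjusted p under 0.05. DESeq2 and limma-voom on all 6 libraries each called 2. Hnrnpa2b1, another of the 5, was lower in every EC-KO library (log2 fold change -0.34) and did not pass on all 6 libraries (edgeR adjusted p = 0.180).

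Slc16a3 is also expressed by myeloid cells, and myeloid markers were lower in the same libraries. Of 20 macrophage markers 18 fell (median log2 fold change -2.07), beside 13.5% of all genes tested. None of the macrophage markers was at 0, and they summed to 9036 to 12540 CPM in FL and 3240 to 4329 CPM in EC-KO. Of 10 neutrophil markers 5 fell (median -1.55), beside the same 13.5%, with none at 0 in all libraries. The neutrophil sums were 1005, 3048 and 2207 CPM in FL 1, 2 and 3, against 567, 454 and 483 CPM in EC-KO 1, 2 and 3. FL 1 had the lowest neutrophil sum of the FL libraries and the lowest Slc16a3 level, and also the lowest pan-endothelial sum of the FL libraries (13655 CPM). Its macrophage sum was the highest of the 6, with Chil3 at 5158, 3001 and 2324 CPM in FL 1, 2 and 3. The order of the FL libraries differed between macrophage markers, with Cybb at 618, 523 and 304 CPM but Cd14 at 1417, 1879 and 2049 CPM. Divided by the macrophage sum, Slc16a3 was 3.50-fold lower in EC-KO, at 1.58%, 2.89% and 3.70% of that sum in the FL libraries, against 0.832%, 0.630% and 0.874% in EC-KO. Divided by the neutrophil sum it was 2.72-fold lower, and divided by the pan-endothelial sum 4.42-fold lower, with no overlap between the groups in either case. Of the other genes that fell, Eno1 overlapped between the groups once divided by the macrophage sum, and Pkm and Pdk1 were higher in every EC-KO library. A gene that falls by less than the sum rises in such a ratio, and Ldha was 2.92-fold and Bsg 3.44-fold higher. Divided by the neutrophil sum, Eno1 and Pdk1 overlapped and Pkm was higher in EC-KO. Divided by the pan-endothelial sum, Eno1, Pkm and Pdk1 all overlapped. The sums weigh abundant markers most, such as Lyz2 (3167 CPM in FL and 2026 CPM in EC-KO, log2 fold change -0.64, not called). Single macrophage markers ranged from -2.95 (Cd163) to -0.64 (Lyz2), against -3.38 for Slc16a3. Single neutrophil markers ranged from -4.02 (Cxcr2) to 1.34 (Mpo). The ratios therefore depend on the markers summed. They do not give the level of Slc16a3 in any 1 cell type, and the part of myeloid cells in its difference was not tested.

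**Figure D4:**
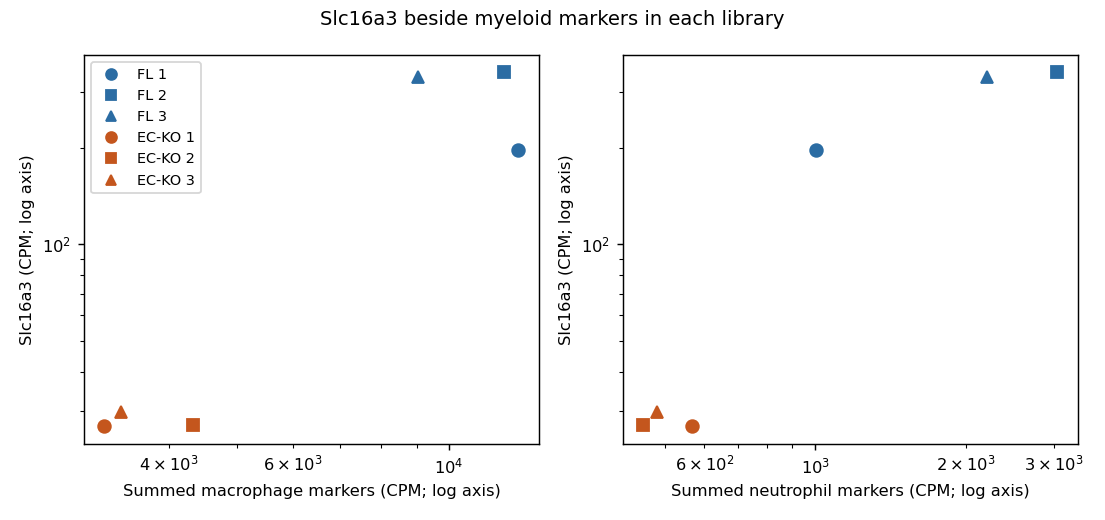
Slc16a3 level against the summed level of 20 macrophage markers (left) and 10 neutrophil markers (right) in each library, in CPM on log axes. Both quantities are lower in all 3 EC-KO libraries, and FL 1 has the lowest Slc16a3 (198 CPM) and the lowest neutrophil sum (1005 CPM) of the FL libraries.

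Slc16a1 and Ldhb, which rose, did so beside markers that rose too. Of 18 epithelial markers 16 rose (median 2.35), with Sftpc, a surfactant protein, at 587 CPM in the FL libraries, against 5521 CPM in EC-KO. Of 13 fibroblast markers 7 rose and 1 (Postn, log2 fold change -1.18) fell, and their sums were 716 to 982 CPM in FL and 1208 to 3141 CPM in EC-KO. Of 9 erythroid and platelet markers 6 rose and 0 fell (median 1.79). Their sums were 33.6 to 110 CPM in FL and 129 to 267 CPM in EC-KO, highest in EC-KO 3. Among the EC-KO libraries the epithelial, fibroblast, pan-endothelial (10958 CPM) and macrophage (4329 CPM) sums were all highest in EC-KO 2, as were Slc16a1 (92.8 CPM), Ldhb (46.6 CPM), Bsg (236 CPM) and Ldha (412 CPM). Without EC-KO 2 the log2 fold changes of Slc16a1 and Ldhb were 1.24 and 1.26, and both remained called. Of 12 markers of smooth muscle and pericytes 8 fell, and of 10 lymphocyte markers 3 rose and 1 fell. Beside all these marker counts, 13.5% of all genes tested fell and 13.5% rose. The part of these cell types in these differences was not tested.

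By the pattern over the 6 libraries, the genes most like Slc16a3 were Cd300lb, Exoc3l2, Rdh12, Sirpb1c and Fcgr4. Likeness was the root mean square difference between log2 CPM values centred on each gene's mean, over 12415 named genes of sufficient level, and it was 0.174, 0.203, 0.217, 0.260 and 0.295 log2 units for these 5. Cd300lb, which encodes an activating receptor of myeloid cells, was at 23.1, 45.7 and 37.8 CPM in FL 1, 2 and 3, against 3.52, 3.13 and 4.79 CPM in EC-KO 1, 2 and 3. Rdh12, a retinol dehydrogenase, was at 81.5, 196 and 229 CPM in the FL libraries, against 13.6, 14.4 and 16.4 CPM in EC-KO. Their log2 fold changes were -3.22 for Cd300lb and -3.51 for Rdh12, and the 6 libraries fall in separated groups, so the measure also takes in the size of the difference.

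Near-identical copies and overlapping genes limit some of these counts. Reads that fit several places were set aside, and they made up 9.10% to 9.89% of alignments in FL and 9.67% to 11.5% in EC-KO. Eno1b, a retrocopy of Eno1, had 32 to 34 counts in FL and 16 to 22 in EC-KO, and Ldha-ps2 and Pgk1-rs7 had at most 12 and 8 in any library. Reads of Eno1, Ldha and Pgk1 that match such copies equally well are missing from the values above. Csnk1d overlaps Slc16a3 on the opposite strand (7057 to 9056 counts in FL and 7686 to 9687 in EC-KO), and the strand setting of the counting is not given in the sources used here. The locus Gm49759 overlaps Pkm on the same strand, with 1751 to 3114 counts in FL and 1715 to 2406 in EC-KO.

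Across the alternatives tried, the fall of Slc16a3 and the rises of Slc16a1 and Ldhb stood in every setting. All 3 kept their direction and their call under each of 17 alternatives. These fits reuse the counts that entered the choice of the genes, so they describe the effect of processing and are no separate support. Leaving out 1 library at a time gave log2 fold changes of -3.63 to -3.25 for Slc16a3, 1.15 to 1.66 for Slc16a1, 1.26 to 1.54 for Ldhb, -1.40 to -1.27 for Eno1 and -0.97 to -0.93 for Pdk1. Scaling the libraries to the pan-endothelial list moved the median gene by 1.11 on the log2 scale, and on that scale Slc16a3 was at -2.23, Slc16a1 at 2.39 and Ldhb at 2.50. On the same scale Eno1 was at -0.16 and not called, Pkm (0.53) and Pdk1 (0.20) changed sign and were not called, and Ldha (1.00), Bsg (1.27) and Eno2 (2.12) were called higher. That scaling moves all genes by nearly the same amount, so Eno1, Pkm and Pdk1 stayed below the median gene by construction.

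**Figure D5:**
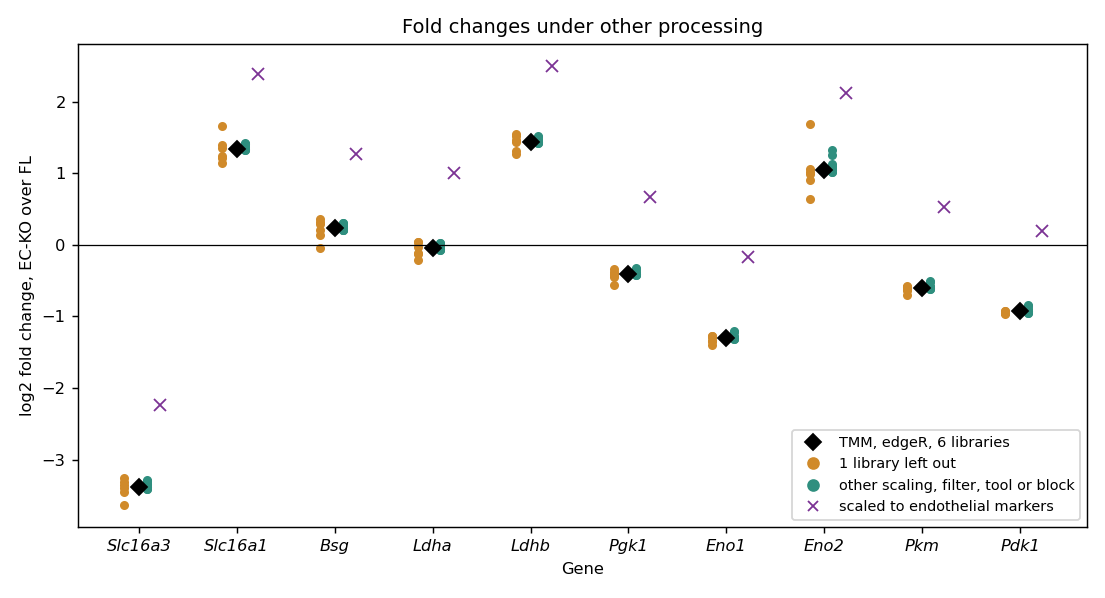
Log2 fold change (EC-KO over FL) of each of the 10 genes under the design used (black diamonds), with 1 library left out (orange), with other scaling, filters, tools or a replicate block (green) and with scaling to endothelial markers (purple crosses). The crosses lie above the other points for all 10 genes, as for Slc16a3 (-2.23 against -3.38).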

How the data were processed

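RNA was sequenced from 6 libraries of cells isolated as lung endothelial cells, 3 FL and 3 EC-KO. Values are raw counts for each Ensembl gene as deposited, laid out as featureCounts writes them (per the file headers). STAR 2.7.10b, featureCounts 2.0.3 and mm10 appear in the submitters' processing notes without role or order. The strand setting and annotation release were not given in sources used here. Of counts between 1 and 10, 60.9% to 64.2% were even, and counts of 2 outnumbered counts of 1, so mates of a read pair may have been counted separately, which would overstate depth. A further 2 columns match no labelled sample and were not used. Symbols were matched by identifier for 51948 of 56941 genes. Only 1441 of these had the same start and end as in the GRCm38 annotation, so positions are those of the table and their build could not be settled. Promoter sequences are RefSeq's on GRCm38.p6.

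Counts were analysed with edgeR 4.0.16 in R 4.3.3: filterByExpr left 18562 genes, with TMM scaling, a robust quasi-likelihood F test of EC-KO against FL without covariates, two-sided, and Benjamini-Hochberg adjustment over all genes tested (threshold 0.05). The common biological coefficient of variation was 25.5%. SEs come from the spread of log2 CPM (prior count 2) within groups. Replicates differed by far more than sampling noise (chi-square per gene 26.1 to 112). The test was checked on simulated counts. The 10 genes and all gene lists were chosen with earlier results of these data known. Named outside the 10 were Fundc1, up to 3 called genes per direction of each pathway list by smallest p, the 5 genes most like Slc16a3, and markers; other names were chosen after their values were seen. A symbol with 2 identifiers was kept on the lower one. Alternatives were other scaling (RLE, upper quartile, library size, the pan-endothelial list, library sizes without mitochondrial genes), other filters, DESeq2 1.42.0, limma-voom (limma 3.58.1), a quasi-likelihood fit without robust estimation, a block on the replicate number, and leaving out each library. Figures were drawn with matplotlib 3.10.9.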

Additional observations from a re-analysis of the deposited data

How the results depend on the processing

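Of 527 comparisons of single genes with an alternative (31 genes), 449 kept their side of the threshold, 66 lost the call, 5 gained it and 7 changed sign with a call on at least 1 side. All 7 came from scaling to the pan-endothelial list, which moved the median gene by 1.11: Ldha was at 1.00, Pkm at 0.53, Pdk1 at 0.20, Pgam1 at 0.078, Dlat at 0.55, Bnip3 at 0.063 and Egln3 at 0.23 (of these Ldha alone was called there). Pgk1, not called on either scale, was at 0.67. The pan-endothelial list was itself lower in EC-KO (median log2 fold change -0.93), and scaling to such a list raises the values of all genes. Why that list was lower was not tested. That scaling called 10745 genes (97.4% of them higher, against 2515 higher of 5029), 3 of the other lactate genes, 11 of pyruvate entry, 8 of upper glycolysis, 5 splicing factors and 9 hypoxia targets. Without a filter 2 other lactate genes were called, and DESeq2 called 8 of upper glycolysis. The Ldhb share rose by 6.23 percentage points when counts were not divided by length, against 11.3 per length.

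The replicate number as a block gave 3848 calls over all genes, 3 in pyruvate entry and 0 among the splicing factors (edgeR, 2 at an unadjusted p under 0.05; DESeq2 and limma-voom without the block called 2 each), and Pkm was no longer called (-0.60). Deviations from the group means correlated at 0.0494, 0.0697 and -0.181 for libraries of the same number, and FL 1 and FL 3 correlated best with another number (0.227 and 0.171), so the numbers were not taken to pair libraries.

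Leaving out 1 library gave 2547 to 6740 called genes, 5 to 7 of the 10 genes, 2 to 3 other enzymes of lower glycolysis, 1 to 2 other lactate genes, 1 to 6 genes of pyruvate entry, 3 to 8 of upper glycolysis, 0 to 4 splicing factors and 4 to 8 hypoxia targets. Over all genes, the largest number was called without EC-KO 2 and the smallest without FL 3. Eno2, at 42 to 241 counts per library, was the gene of the 10 most limited by depth.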
